A study of Mus musculus with 15 samples.

Results

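The comparison set CD4 T cells activated for 65 h against the same kind of cells activated for 42 h, and asked whether the microRNA repertoire of these cells still moved after 42 h. The members were chosen by label and are 4 of the 15 arrays of the series: 2 arrays of cells held for 65 h and 2 arrays of cells held for 42 h on plate-bound antibodies against CD3, which signals for the T cell receptor, and CD28, a costimulatory receptor. All cells came from spleen and lymph nodes of C57/B6 mice 6 to 8 weeks old and were isolated on CD4-coated magnetic beads, and no allele or other agent is named for either group. Naive cells (2 arrays) and cells activated for 6, 12 and 24 h (2 arrays each), together with cells rested in IL-2 to day 7 after 65 h of stimulation (1 array) and such rested cells restimulated for 18 h (2 arrays), entered the fit and show where a level came from or went. No label tells whether arrays of 1 time are separate mice, separate cultures or repeats of 1 RNA. The p-values therefore measure the spread among these arrays alone, and that spread may be technical. In a whole population, more cells of a kind and more RNA per cell cannot be told apart.

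MicroRNAs are short RNAs cut from hairpin transcripts by Drosha and Dicer. Loaded into an Argonaute protein, they pair with messenger RNAs and lower their translation and stability. A naive CD4 T cell is quiescent. Stimulation through the receptor and CD28 makes it grow, divide and take up effector functions, and its microRNA content is known to be reshaped along the way, some species falling with the exit from quiescence and others being induced. The files used here pair no probe with a microRNA, so the probes appear by ID, no sequence is shown, and the cell type could not be checked against marker microRNAs.

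Levels are log2 values of the deposited value table, whose exact scale is unknown and in which no background subtraction is visible, so that folds of dim probes are understated. Of its 2191 probes, 722 were well above background on both arrays of a time (the 42 h time judged by its second array) and were tested. Each group but the single day 7 array (slide 1) had 1 array on each of 2 slides, the first 42 h and first 65 h arrays on slide 2 and the second of each on slide 1. The first 42 h array stood apart in its scanner file. On it 2146 of 2500 probes were well above background, against 640 to 950 on the other 14 arrays, and 49.9% of its probe spots were marked as non-uniform, against at most 0.112% elsewhere. Its column in the value table did not follow that scanner file (Spearman correlation 0.504, against 0.972 to 0.987 for the others). Over the 424 probes of the table detected on the other 14 arrays the column correlated best with the second 42 h array (r = 0.984) and the first 65 h array (r = 0.982). The sources used here do not say how the column was made, so the count of calls and the scanner values are also given without that array. Slides were read from the scanner files, so the slide of that column comes from a file it did not follow. The slide 2 differences and the slide block rest on that assignment.

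Between 42 h and 65 h 4 probes rose and 1 fell, out of 722 (limma, Benjamini-Hochberg adjusted p under 0.05), which is 0.693% of the probes tested: 0.554% higher and 0.139% lower. The risen ones were UCSF033_000906, UCSF033_000905, UCSF033_000907 and UCSF033_000697, and the one that fell was UCSF033_000782. At an unadjusted limma p under 0.05 there were 84 (11.6%), of which 30 were higher and 54 lower at 65 h. All of them went the same way on both slides, against 67.0% of all probes. A choice by p on the same arrays favours such agreement. The median probe moved by -0.05 log2 and the median absolute difference was 0.24 log2. With the slide as a block 14 probes were higher and 13 lower (1.94% and 1.8%, together 3.74% of 722), including the 5 above. Leaving out any 1 of the 4 arrays gave 0 calls in limma, in a fit where 1 time had a single array and took its spread from the other groups. The differences were then 3.37 to 3.46 log2 for UCSF033_000906, 0.94 to 1.20 for UCSF033_000697 and -2.50 to -2.32 for UCSF033_000782. These probes were called on the same 4 arrays, a choice that favours close pairs. Narrow ranges follow from that choice and are no separate support. The probes at an unadjusted p under 0.05 then numbered 109 without the first 65 h array, 46 without its partner, 69 lacking the first 42 h array and 48 lacking the other. Leaving out either restimulated array, which enter only through the shared spread, gave 13.

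**Figure D1:**
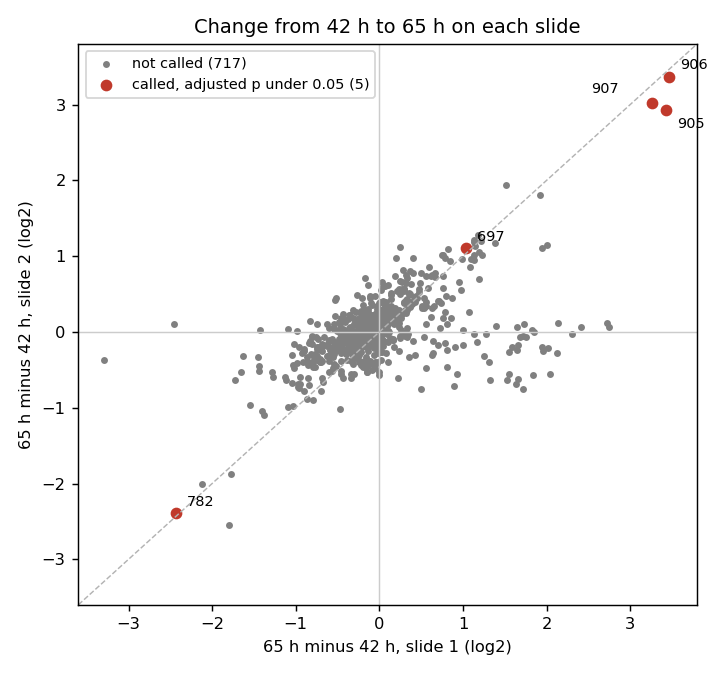
Each point is 1 of the 722 tested probes, with 65 h minus 42 h (log2) on slide 1 along the x axis and on slide 2 along the y axis. Red points passed the test (labelled by the end of the probe ID). The group of 3 at the upper right, UCSF033_000905 to UCSF033_000907, lies between 2.93 and 3.47 on both slides and UCSF033_000782 at -2.44 and -2.39, while a band of grey points lies above 1 on slide 1 and near 0 on slide 2.

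UCSF033_000906 and its neighbours by ID rose together. In the scanner files UCSF033_000906 and UCSF033_000907 were not well above background on the second 42 h array and were at least 25.1-fold and at least 23.02-fold higher on the 65 h arrays. For such a bound the mean of the bright arrays was divided by the dimmest signal that still counted as well above background on the dim array, or by the probe's own signal if higher. In the value table UCSF033_000906 had 8.33 and 8.43 on the 65 h arrays, against 4.97 and 4.96 on the 42 h arrays (first and second array of each time). The times did not overlap, and the difference was 3.42 log2 (SE 0.48, n = 2 each). That is 10.7-fold on the scale of the table, set against a 42 h level that one array did not place above background. In limma its adjusted p was 0.0159. On slide 1 it was 3.47 and on slide 2 it was 3.37.

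UCSF033_000905 had 8.21 and 8.49 at 65 h, against 5.28 and 5.06 at 42 h, a difference of 3.18 log2 (SE 0.49, limma adjusted p = 0.0176). UCSF033_000907, outside the rule for naming probes and named after its values were seen, had 8.12 and 8.29 at 65 h, against 5.11 and 5.03 at 42 h (difference 3.14 log2, limma adjusted p = 0.0176). The 3 probes lay within 0.32 log2 of each other on every one of the 15 arrays. Whether they measure 1 microRNA is not given in the files used here, so they may not be 3 separate changes.

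These probes had stayed low until 42 h. On the 10 arrays from naive cells to 42 h the 3 probes lay between 4.61 and 5.71, and on the 5 arrays from 65 h on they lay between 8.12 and 11.0. After rest to day 7 UCSF033_000906 had 9.88, and in restimulated cells 9.04 and 10.90. Its earlier differences were -0.65 log2 for 24 h minus naive (adjusted p = 0.384) and 0.18 for 42 h minus 24 h (adjusted p = 0.908). In the fit of the scanner files, without the first 42 h array, the differences of UCSF033_000906, UCSF033_000905 and UCSF033_000907 did not pass (limma adjusted p = 0.136, 0.192 and 0.183).

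UCSF033_000782 was bright in naive cells and was lower at every later time of the first stimulation. It had 7.46 and 7.28 at 65 h, against 9.85 and 9.72 at 42 h, with no overlap. The fall was -2.41 log2 (SE 0.32, limma adjusted p = 0.0159). Both slides showed it, at -2.44 and -2.39, and the level at 65 h was 5.32-fold lower on the scale of the table. Its means differed from naive by -1.70 log2 at 24 h, -3.63 at 42 h and -6.04 at 65 h, and 24 h minus naive passed the test (adjusted p = 0.0110), while 42 h minus 24 h did not (-1.93 log2, adjusted p = 0.0529).

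The neighbouring probe by ID, UCSF033_000781, had 10.28 and 10.98 at 65 h, against 12.84 and 12.78 at 42 h. Its difference of -2.18 log2 did not pass (SE 0.44, limma adjusted p = 0.0688) and passed with the slide as a block (adjusted p = 0.0399). From the scanner files without the first 42 h array the differences of UCSF033_000782 and UCSF033_000781 were -2.14 and -2.17 log2, and neither passed (adjusted p = 0.485 and 0.633).

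UCSF033_000697, named after its values were seen, made a smaller step. It had 7.03 and 6.78 at 65 h, against 5.92 and 5.74 at 42 h, a rise of 1.07 log2 (SE 0.17, limma adjusted p = 0.0198). The slides gave 1.04 and 1.11. It had started at 4.73 and 4.82 in naive cells, and it stood at 5.75 on the day 7 array. It was also called when the second 42 h array alone was read from the scanner files, with a rise of 1.79 log2 (SE 0.24, adjusted p = 0.0354). That call was lost in most of 13 fits that left out 1 more array, with differences of 1.76 to 1.82 log2. The fit without the day 7 array, which is alone in its group, only repeats the same test.

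That repeat on the scanner files called 2 probes higher and 1 lower out of 914, or 0.328% (0.219% and 0.109%). The other 2, named after their values were seen, were dim at 42 h. UCSF033_000686 had 5.41 and 5.03 there and reached 7.67 on the day 7 array. UCSF033_000686 was higher at 65 h by 1.99 log2 in the scanner files (limma adjusted p = 0.0354) and by 0.88 log2 in the value table, where it did not pass (adjusted p = 0.143). UCSF033_000733 was well above background on the second 42 h array and on neither 65 h array. In the value table its difference between 42 h and 65 h was -0.85 log2. It did not pass (limma adjusted p = 0.0688) and passed with the slide as a block (adjusted p = 0.0399). In the scanner files it was at least 3.46-fold lower at 65 h, and the called fitted difference was -2.21 log2. Its first 65 h array lay at the floor set for the scanner values, so the spread of its 65 h values is understated. The lone 42 h array of that fit was taken to have the spread of the other times. Over the 722 probes tested in both, 559 had the same sign in the value table and in the scanner files.

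**Figure D2:**
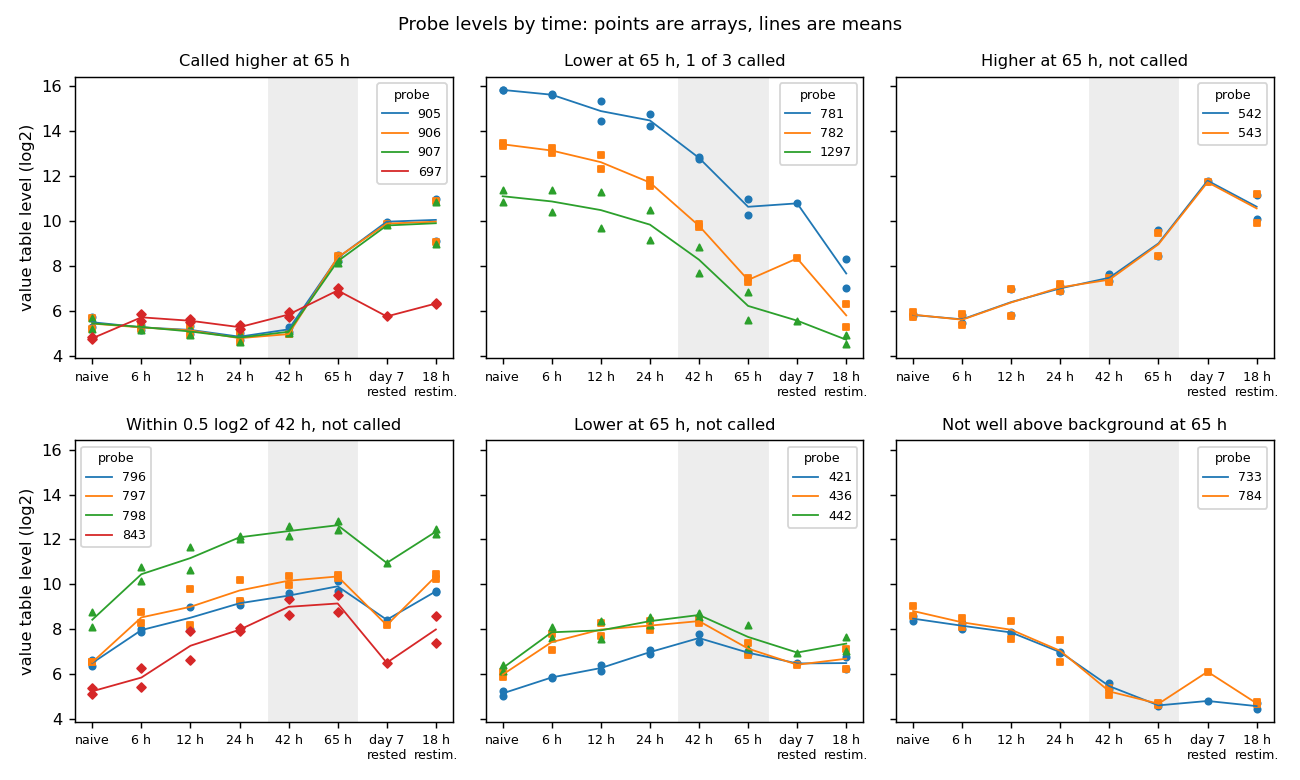
Value table levels (log2, y axis) of 18 probes against time (x axis, with the 42 h and 65 h times shaded); points are arrays and lines are means of the 2 arrays, day 7 having 1. UCSF033_000905 to UCSF033_000907 lie between 4.61 and 5.71 up to 42 h and at 8.12 or more from 65 h on, while UCSF033_000796, UCSF033_000797, UCSF033_000798 and UCSF033_000843 differ by less than 0.5 log2 between 42 h and 65 h.

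Probes that an earlier analysis of these data had named for their change from naive cells were read in the same way. UCSF033_000797 had 10.41 and 10.29 at 65 h, against 10.36 and 9.96 at 42 h, and the times overlapped. Its difference was 0.19 log2 with a 95% interval from -0.89 to 1.27, so a change of 1 log2 upward was within the error. UCSF033_000796 differed by 0.41 log2 (-0.25 to 1.08), UCSF033_000798 by 0.26, UCSF033_000843 by 0.15 (-1.05 to 1.35) and UCSF033_001063 by 0.49 (-0.31 to 1.29). The interval of each of the 5 held 0 and reached past 1 log2. None of these 5 passed (limma adjusted p = 0.708 to 0.975). UCSF033_001064 lay at 4.36 and 4.23 at 65 h, against 4.34 and 4.36 at 42 h, and was too dim on every pair of arrays to be tested.

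Other probes of that list kept a difference on both slides without passing. UCSF033_001297 had 6.86 and 5.57 at 65 h, against 8.86 and 7.69 at 42 h. The times did not overlap, but the arrays of 1 time lay more than 1 log2 apart, and the difference of -2.06 log2 had an SE of 0.70 (limma adjusted p = 0.251). UCSF033_001298 differed by -1.82 log2 (adjusted p = 0.258). UCSF033_000542 had 8.43 and 9.58 at 65 h, against 7.31 and 7.63 at 42 h, without overlap, and differed by 1.53 log2 (SE 0.49, adjusted p = 0.226), and UCSF033_000543 by 1.58 log2 (adjusted p = 0.226). On the day 7 array UCSF033_000542 reached 11.8.

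Some probes that had risen by 24 h stood lower at 65 h than at 42 h. UCSF033_000421 had 7.02 and 6.89 at 65 h, against 7.41 and 7.80 at 42 h, a difference of -0.65 log2 (SE 0.22, limma adjusted p = 0.251). UCSF033_000436 and UCSF033_000442, named after their values were seen, differed by -1.22 and -0.98 log2 (adjusted p = 0.199 and 0.345). UCSF033_000784, which had fallen by 24 h, was likewise detected on the second 42 h array and on neither 65 h array. It was at least 2.89-fold lower at 65 h in the scanner files, where both 65 h arrays lay at the floor. The fitted scanner difference of -2.03 log2 did not pass. In the value table it differed by -0.55 log2 (limma adjusted p = 0.705).

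Across all tested probes the arrays of 65 h and 42 h were set against arrays of the same time. On the same slide the median absolute difference between the 65 h and the 42 h array was 0.20 log2 on slide 2 and 0.30 on slide 1. Between the arrays of 1 time, on different slides, it was 0.29 at 65 h and 0.22 at 42 h, and 0.21 to 0.40 for the 5 other pairs. The 65 h arrays set against the 42 h arrays of the other slide differed by 0.34 and 0.38. Arrays of 1 time also differ in slide, so these 2 values are the like comparison with them. Both lay above the 65 h and 42 h pairs and within the range of the 5 other pairs. With 2 arrays against 2, an exact permutation test over arrays has 3 distinct splits and cannot go below p = 0.333, so no such test was made.

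**Figure D3:**
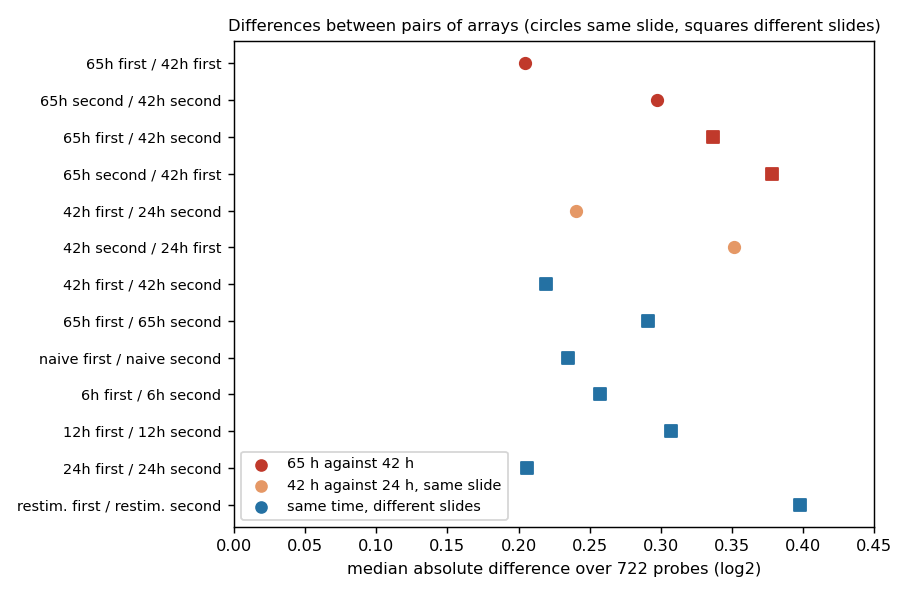
Median absolute log2 difference over the 722 tested probes (x axis, from 0) for each pair of arrays (y axis, named by time and by first or second array). Red circles are 65 h against 42 h on the same slide (0.20 and 0.30), and blue squares are arrays of the same time on different slides (0.21 to 0.40). Red squares are 65 h against 42 h across slides (0.34 and 0.38), the like comparison with the blue squares. Orange circles are 42 h against 24 h on the same slide.

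The small changes were partly shared between the slides. The step on slide 1 and the step on slide 2, which have no array in common, correlated at r = 0.548 across the 722 probes (Spearman 0.532), and at r = 0.466 without the 5 called probes. Probes are not independent replicates. In all, 484 of the 722 probes (67.0%) moved the same way on both slides. Of these, 23 moved by 1 log2 or more on both, 17 higher and 6 lower at 65 h, and 5 of the 23 were the calls. The 50 probes lowest at 65 h relative to 42 h on slide 2 had a median of -0.75 log2 on slide 1, where all probes had -0.11, and 36 of them were below 0 there, against 447 of all 722. The 50 highest on slide 2 had a median of 0.80 on slide 1, and 49 of them were above 0 there, against 273 of all 722.

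The reverse reading differed. The 50 probes highest on slide 1 had a median of -0.01 log2 on slide 2, with 24 above 0, while the 50 lowest had -0.52, with 45 below 0. Of all 722 probes 344 were above 0 on slide 2 and 367 below. A set drawn after the values were seen holds 28 probes that were more than 1 log2 higher at 65 h on slide 1 and within 0.5 log2 on slide 2. Their median was 7.32 on the second 65 h array (slide 1), against 4.65 on the first 65 h array, 4.80 on the first 42 h array and 5.45 on the second. On other arrays of slide 1 the same probes had medians of 6.12 in naive cells and 7.55 at 6 h, against 4.76 and 4.83 on slide 2. At 12 h they had 4.88 on slide 1 and 4.63 on slide 2, and in restimulated cells 4.63 on both. At 24 h the order was the other way, with 4.72 on slide 1 and 5.42 on slide 2. The part of the slide in these differences was not tested.

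The precision limits what can be said of the probes without a call. The median SE of a difference was 0.28 log2. For 402 of the 722 probes (55.7%) the 95% interval of 65 h minus 42 h lay wholly within 1 log2 of 0. For the other 320 it reached past 1 log2, and for 260 of those it also held 0, so these data leave room both for no change and for a change of 1 log2. The interval lay wholly beyond 1 log2 for 5 probes, UCSF033_000905, UCSF033_000906, UCSF033_000907, UCSF033_000781 and UCSF033_000782. The intervals were not adjusted for the number of probes. Folds of dim probes are understated in the value table, so an interval within 1 log2 does not bound their fold. From the scanner files the share of intervals within 1 log2 was smaller, as given with the alternatives below. By brightness, the 241 dimmest probes had a median absolute difference of 0.15 log2 with 0 calls, the 240 in the middle 0.29 with 4, and the 241 brightest 0.29 with 1.

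The step was set against the ones before it. The median absolute difference was 0.22 log2 from 12 h to 24 h, 0.28 from 24 h to 42 h and 0.24 from 42 h to 65 h, over 12, 18 and 23 h. The number of probes that differed by 1 log2 or more was 14, 37 and 37. Calls were 0 (0% of 722), 1 (0.139%) and 5 (0.693%) in the same order, and 55, 90 and 84 probes were at an unadjusted p under 0.05 in limma. With the slide as a block the calls were 2 (0.277%, both higher), 27 (8 higher, 1.11%, and 19 lower, 2.63%) and 27, so the last 2 steps then had the same number. Neighbouring steps share arrays. The test of the last step against the one before it called 0 probes, with 55 at an unadjusted p under 0.05. For UCSF033_000906 the last step was larger by 3.24 log2 (unadjusted p = 0.00326, limma adjusted p = 0.528). Without either restimulated array that test called 3 probes, and 42 h minus 24 h had 14. It had 0 without either 24 h array or without the first 42 h array, and 24 h minus 12 h had 1 without either 42 h array.

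Probes that had already moved by 24 h were followed through the step. At 24 h 50 probes were higher and 51 lower than in naive cells (6.93% and 7.06% of 722), a contrast that holds no 42 h or 65 h array, though these share in its estimate of spread. With the slide as a block there were 79 higher and 102 lower (10.9% and 14.1%, together 25.1%). The 50 lay a median of 1.46 log2 above naive at 24 h, 1.77 at 42 h and 1.64 at 65 h. Their median for 65 h minus 42 h was -0.07 log2 (quartiles -0.29 and -0.003), with -0.18 on slide 1 and 0.04 on slide 2. Of the 50, 38 were lower at 65 h, and 0 passed the limma test of that step. The 51 lay at -1.02, -1.44 and -1.58 log2 at 24, 42 and 65 h. Their median for 65 h minus 42 h was -0.18 log2 (slides -0.24 and -0.17), 42 of the 51 were lower at 65 h, and 1 passed, UCSF033_000782. All 722 probes had a median of -0.05 log2 for that step, and 416 of them were lower. In the sets chosen with the slide as a block the medians were -0.14 and -0.18 log2, with 60 of the 79 and 84 of the 102 lower at 65 h. In the scanner files without the first 42 h array 46 of 63 probes higher at 24 h and 21 of 38 probes lower at 24 h were lower at 65 h. Of all 914 probes tested there, 420 were lower and 488 higher at 65 h, with a median of 0. The interval lay within 1 log2 of 0 for 29 of the 50 and 41 of the 51. Of the 5 probes called between 42 h and 65 h, UCSF033_000782 was the 1 that had been called at 24 h.

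**Figure D4:**
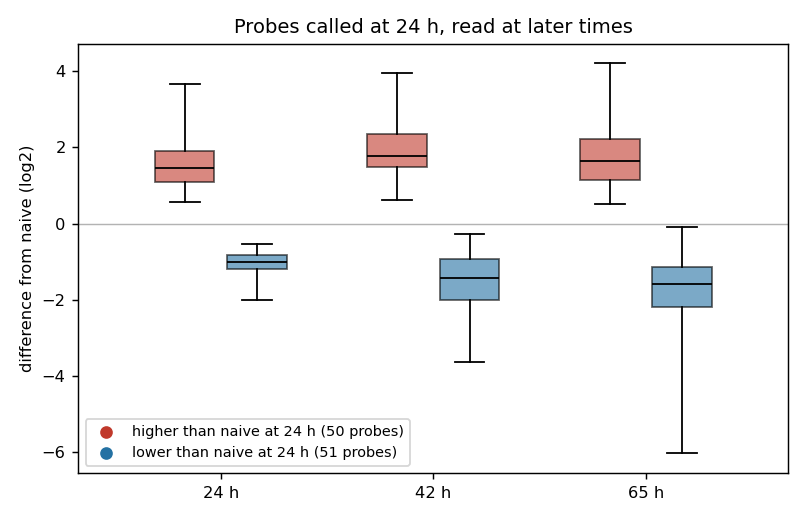
Differences from naive cells (log2, y axis) at 24, 42 and 65 h (x axis) for the probes called higher (red, 50) or lower (blue, 51) at 24 h; boxes are quartiles with the median, whiskers the lowest and highest probe. The medians are 1.46, 1.77 and 1.64 for the higher set and -1.02, -1.44 and -1.58 for the lower set; all 3 times share the naive arrays.

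The set of detected probes was read from the scanner flags, leaving out the first 42 h array. Of 2500 probes, 719 were well above background on the second 42 h array and 806 on the second 65 h array, of the same slide. The first 65 h array also detected more than the second 42 h array. Counts differed within a time too, most in restimulated cells, at 950 and 640. On both 65 h arrays 723 were detected, a count that asks for 2 arrays and cannot be set against that of 1. There were 55 that were detected on both 65 h arrays and not on the 42 h array, and 15 that were detected on the 42 h array and on neither 65 h array. Between single arrays of slide 1, 109 probes were detected at 65 h and not at 42 h, and 22 at 42 h and not at 65 h. Between the 65 h arrays, on different slides, 73 probes were detected on the first alone and 83 on the second alone. The 49 gained probes of the value table were dim, with a median of 5.16 at 65 h, against 4.89 at 42 h. The brightest of them was UCSF033_000906. The 14 lost ones in the table had 4.70 at 65 h, against 4.98 at 42 h.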

How the data were processed

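Total RNA was Cy3-labelled and hybridised to 1-colour Agilent arrays, per the labels' protocols; the files list 2500 probes. The deposited scanner files hold spot intensity. Per the file headers, Feature Extraction 10.1.1.1 wrote them and removed background and a spatial trend; the submitters' processing notes name version 10.6. The authors' deposited value table holds log2 values. The sources used here do not say how they were made. Its columns have medians of 4.38 to 4.41, and its scale and centring stay unknown.

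The value table was tested with limma 3.58.1 (lmFit, eBayes) in R 4.3.3, over all 15 arrays and 8 groups with 7 residual degrees of freedom, and adjusted by Benjamini-Hochberg at 0.05. For the repeat, spots marked as outliers were left out, the processed signal was averaged per probe and scaled to the 75th percentile of the 571 probes that all 14 arrays detected, given a floor of 0.583% of that percentile, and taken to log2. A probe was detected when over 50% of its spots were well above background. All arrays were scanned on 1 day. The number of arrays limits the precision. The 65 h and 42 h pairs deviated together by slide (r = 0.713 between their slide differences over probes), so slide was also fitted as a block. Alternatives changed the filter, the arrays, the variance model, centring, values, scaling and background correction.

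The comparison, lists and tests were chosen with earlier results of these data known. Probes were named as the 2 largest same-direction differences each way, filled by unadjusted p under 0.05 where fewer passed, and 14 from an earlier analysis. MicroRNA and marker lists were not used, since no table names the probes. The limma step was tested on simulated data with independent noise and no slide effect. There 200 of 722 probes were changed, by 1 or 2 log2. It recovered 61% of the changes of 1 log2 and 89% of those of 2 log2, and 4.46% of its calls were false. The real data had far fewer calls and differences shared by slide, so these rates may not hold for them.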

Additional observations from a re-analysis of the deposited data

How the results depend on the processing

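The 5 calls between 42 h and 65 h became 0 with no filter on dim probes (2191 tested, 152 at an unadjusted p under 0.05), 2 among the 514 probes detected on the second 42 h array and both 65 h arrays, and 27 with the slide as a block. For these times that block is also a replicate block, because each slide holds the first or the second array of both. Scanner values gave 3 calls without the first 42 h array and 16 when the slide was also blocked. They gave 0 with all 15 arrays (15.4% of 859 at an unadjusted p under 0.05), and, without the first 42 h array, 0 with the percentile over all probes (66), 0 with quantile normalization (75) and 0 with normexp (87). Leaving out 1 array gave 0 to 13 calls in the value table and 1 to 9 from the scanner files, where 1 call came without the second 65 h array or any single naive, 6 h, 12 h or 24 h array, and 9 without either restimulated array. The same ranges were 0 to 3 for the change of step, 0 to 14 for 42 h minus 24 h, 0 to 1 for 24 h minus 12 h, 289 to 436 for intervals within 1 log2, and -0.22 to -0.02 and -0.21 to -0.17 for the medians of probes higher and lower at 24 h. Intervals within 1 log2 were 1859 of 2191 with no filter and 110 of 914 from the scanner files. Scaled scanner values gave median absolute differences of 0.47 between the 65 h arrays, and 0.39 and 0.52 between the second and first 65 h arrays and the second 42 h array, and a median of -0.0376 for the probes lower at 24 h. With all 15 scanner files UCSF033_000697 had -0.0229 log2 and UCSF033_000686, called in the scanner files without the first 42 h array, had -0.32; the cause was not tested. Under 26 or 27 alternatives UCSF033_000906, UCSF033_000905, UCSF033_000907 and UCSF033_000782 kept their direction and lost the call under 10, 10, 10 and 11; UCSF033_000697 lost it under 11 and turned its sign under 1.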
